A study of Caenorhabditis elegans with 8 samples.

Results

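The genes examined were set-1, set-4 and dpy-21, which encode the enzymes that add and remove methyl groups on lysine 20 of histone H4 (H4K20). They were taken by name, as the methyltransferases and the demethylase of this residue, and not by their levels, and all 3 were present among the 20389 genes of the raw count table. The question was how the methyltransferase transcripts compare with the demethylase transcript in embryos and in larvae. Polyadenylated RNA was sequenced from whole C. elegans of strain VC199, genotype sir-2.1(ok434) IV, as 4 embryo libraries and 4 larvae libraries. All 8 libraries carry the ok434 allele, a knockout allele of sir-2.1 per the study, and no wild-type library was analysed here. The embryos were of mixed stage and were obtained by bleaching adults grown without synchronization. The larvae were collected after hatching overnight and a further 24 hours on plates, and are called L3 in the labels and L2 to L3 in the methods.

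SET-1 is the worm counterpart of the mammalian enzyme PR-Set7 and places the first methyl group on H4K20. SET-4 is the counterpart of SUV4-20 and turns the monomethylated residue into the di- and trimethylated forms. DPY-21 contains a Jumonji C domain and takes the dimethylated residue back to the monomethylated form. H4K20me1 accumulates on the dosage-compensated X chromosomes of hermaphrodites, where DPY-21 acts with the dosage compensation complex, a condensin-based complex that lowers X-linked expression.

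In the strain studied, transcripts of all 3 enzymes were lower in larvae than in embryos, but to different degrees. The set-1 transcript fell 10.0-fold, set-4 fell 3.85-fold and dpy-21 fell 1.44-fold on TMM-scaled counts. Within a library, the ratio of either methyltransferase transcript to the demethylase transcript was therefore lower in all 4 larvae libraries than in any embryo library. TMM is a scaling between libraries that assumes most genes do not differ. Here 10058 of the 13571 genes tested were called different between stages, so that assumption was not met by these calls. Results under other scalings are given below. TPM is a level per transcript length, scaled to the same total in each library. CPM is a count relative to library size, with no length in it. Levels of different genes are compared here on the TPM scale, since reads of a longer transcript are more for the same level.

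The libraries held 13687095 to 31292935 gene counts. Replicates resembled each other, with Pearson's r of log2 CPM across genes of 0.978 to 0.991 among embryo libraries and 0.961 to 0.980 among larvae libraries. The common biological coefficient of variation was 21.9% in embryos and 30.8% in larvae. Embryo markers (7 genes: end-1, end-3, pie-1, pos-1, mex-5, mex-6 and hch-1) summed to 890.4 to 1404 TPM in embryos and 5.95 to 12.96 TPM in larvae. All 7 were lower in larvae, as were 37.2% of all genes tested. Cuticle and molt markers (5 genes: col-10, col-12, col-13, mlt-10 and mlt-11) summed to 622.0 to 906.6 TPM in embryos and 2892 to 9786 TPM in larvae. Of the 5, 3 were higher in larvae and 0 lower (36.9% and 37.2% of all genes tested). Most of the larval sum was col-10, at 2347 to 9168 TPM. The level of mlt-10 was 72.4 to 120.2 TPM in embryos and 46.2 to 76.0 TPM in larvae. That of mlt-11 was 162.8 to 188.5 TPM in embryos and 39.6 to 307.7 TPM in larvae. The summed level of 8 genes of adults was highest in embryo replicate 2, at 62.1 TPM, against 0.836 to 6.92 TPM in the other embryo libraries and 0.982 to 17.6 TPM in larvae. Sperm markers (30 genes) summed to 92.8 TPM in embryo replicate 4 against 5.08 to 5.57 TPM in the other embryo libraries. In larvae replicate 3 they summed to 70.5 TPM against 0.847 to 18.7 TPM in the other larvae libraries. These sums rest on 137 reads in embryo replicate 4 and 139 in larvae replicate 3, and 0 of the 30 genes had enough reads to be tested. Titles of the embryo libraries all start with SEA and those of the larvae libraries with MK, so stage and whatever these prefixes stand for cannot be told apart. The study's methods speak of biological replicates, but the labels do not say that the libraries came from separate cultures, and p-values then measure only the spread between these libraries.

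set-1 (T26A5.7, WBGene00004781) is a protein-coding gene on the minus strand of chromosome III, from 6450740 to 6452322 in WS220, with 3 annotated transcripts of 3 to 4 exons. Its counts were 10806, 9994, 7607 and 7469 in embryo replicates 1 to 4. In larvae replicates 1 to 4 they were 469, 749, 516 and 477. The embryo library with the fewest set-1 reads thus held more of them than the 4 larvae libraries together. In TPM, its level was 264.4, 368.6, 370.9 and 297.9 in embryos. In larvae its level was 21.3, 20.9, 26.02 and 15.7 TPM. No larvae library came near the embryo range, since the lowest embryo value was 10.2-fold above the highest larval value in TPM and 6.55-fold above it in TMM-scaled CPM. The embryo mean was 325.4 ± 53.0 TPM and the larval mean 20.97 ± 4.23 TPM (SD, n = 4 libraries each). On TMM-scaled counts the log2 fold change, larvae minus embryos, was -3.32 ± 0.196 (SE) with a 95% interval from -3.75 to -2.90 (adjusted p = 5.80e-08, edgeR's quasi-likelihood test with Benjamini-Hochberg adjustment over 13571 genes).

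One larval value of set-1 differed between the count and TPM tables. In larvae replicate 3, set-1 had a TPM of 0.899 for each CPM unscaled by TMM, against 0.621 to 0.655 in the other larvae libraries. The same quotient of set-4 in larvae replicate 3 was 0.595, near the 0.613 to 0.638 of the other larvae libraries. After dividing by the median gene, the quotient of set-1 in larvae replicate 3 was 1.47 times the highest of the other larvae libraries, and 0.377% of 11929 genes reached that value. On TMM-scaled CPM, set-1 in larvae replicate 3 was 35.03, inside the 29.9 to 40.2 of the other larvae libraries. The highest larval TPM of set-1 therefore rests on the TPM table alone. A later annotation (WBcel235) places the antisense RNA gene anr-1 on the plus strand over a part of set-1, from 6451048 to 6451567. The strand setting of the counting was not given in the sources used here. In that stretch, reads of set-1 and of this antisense partner therefore cannot be told apart.

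set-4 (C32D5.5, WBGene00016313) is a protein-coding gene on the minus strand of chromosome II, from 6329818 to 6331286 in WS220, with 1 annotated transcript of 5 exons. Its counts were 2092, 1935, 962 and 1341 in embryos. In larvae they were 171, 353, 233 and 239. In TPM, its level was 52.4, 72.7, 48.0 and 54.5 in embryos. Embryo replicate 2 was the highest of these, and this was also the library with the most transcript from adult marker genes, whose part in the value was not tested. The larval levels of set-4 were 7.66, 10.0, 7.77 and 7.40 TPM, with replicate 2 apart from the other 3. The groups did not overlap, and the lowest embryo value was 4.78-fold above the highest larval value in TPM and 2.89-fold above it in TMM-scaled CPM. The embryo mean was 56.9 ± 10.9 TPM and the larval mean 8.22 ± 1.23 TPM (SD, n = 4 libraries each). On TMM-scaled counts the log2 fold change was -1.95 ± 0.175 (SE) with a 95% interval from -2.33 to -1.56 (adjusted p = 1.32e-06, edgeR's quasi-likelihood test with Benjamini-Hochberg adjustment). Without embryo replicate 2 it was -1.82.

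dpy-21 (Y59A8B.1, WBGene00001080) is a longer protein-coding gene on the minus strand of chromosome V, from 17936734 to 17949002 in WS220, with 2 annotated transcripts of 10 to 11 exons. Its counts were 10532, 7845, 5602 and 6135 in embryos. In larvae they were 2033, 3369, 3707 and 3370. The larval counts were all below the embryo counts, as for the methyltransferases. On TMM-scaled CPM its level was 256.7, 317.9, 312.4 and 275.9 in embryos. In larvae it was 174.2, 168.5, 251.7 and 211.2 CPM. The stages only just separated on this scale, since the lowest embryo library was 1.02-fold above larvae replicate 3. In TPM the stages lay further apart, at 58.3, 65.7, 62.1 and 55.5 in embryos. In larvae the TPM of dpy-21 was 20.1, 21.3, 27.5 and 23.2. The embryo mean was 60.4 ± 4.45 TPM and the larval mean 23.0 ± 3.25 TPM (SD, n = 4 libraries each).

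**Figure D1:**
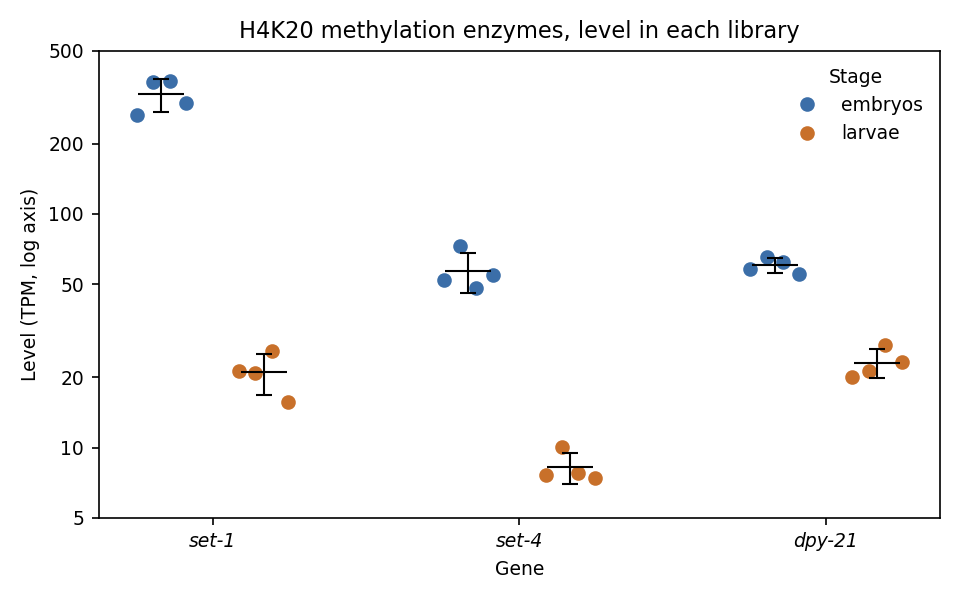
Level of set-1, set-4 and dpy-21 in each library in TPM, on a log axis, with embryos in blue and larvae in orange. Points are single libraries in replicate order, and horizontal lines with bars are the mean ± SD of 4 libraries. Larvae lie below embryos for each gene, by 15.5-fold for set-1, 6.92-fold for set-4 and 2.62-fold for dpy-21 in mean TPM.

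The log2 fold change of dpy-21 on TMM-scaled counts was -0.53 ± 0.168 (SE) with a 95% interval from -0.90 to -0.16 (adjusted p = 0.0133, edgeR's quasi-likelihood test with Benjamini-Hochberg adjustment). It kept its call when any single library was left out, between -0.66 without larvae replicate 3, which held the highest dpy-21 CPM and the most sperm marker transcript of the larvae libraries, and -0.45 without larvae replicate 2 (adjusted p = 0.0459 for the latter, same test). The sperm markers held 139 reads in larvae replicate 3, and their part in the dpy-21 value was not tested. Its size moved with the scaling, to -1.02 with library totals alone and to -1.36 on log2(TPM + 1). The median of all genes moved as well, from -0.03 with TMM to -0.53 with library totals and to -0.72 on log2(TPM + 1). Relative to that median, the value of dpy-21 was -0.50, -0.50 and -0.64 in the same order. The values of set-1 relative to the median were -3.29, -3.27 and -3.17, and those of set-4 were -1.91, -1.90 and -1.92.

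**Figure D2:**
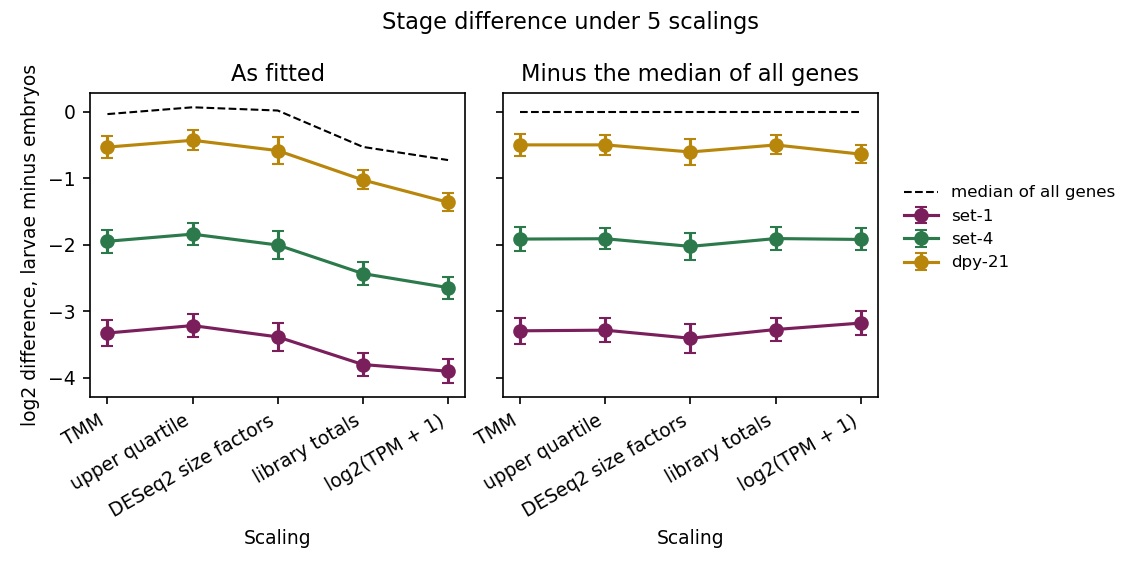
Log2 difference, larvae minus embryos, of the 3 genes under 5 scalings, as fitted on the left and after subtraction of the median of all genes on the right. Points are estimates, bars are standard errors, lines join the values of 1 gene and the dashed line is the median of all genes. The values as fitted move with the median, except with DESeq2 size factors. There the 3 genes are slightly lower than with TMM, while the median is higher, at 0.02 over 19004 genes. set-1, set-4 and dpy-21 keep their order under each of these scalings.

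All 3 genes were called lower in larvae, but so was much of the genome. Of the 13571 genes tested, 37.2% were called lower and 36.9% higher in larvae (5054 and 5004 genes). This split was 6607 lower and 3683 higher with library totals, and 7694 lower and 2982 higher by limma on log2(TPM + 1). In all 3 genes every larvae library was below every embryo library in TMM-scaled CPM, as it was in 35.6% of genes tested. A decrease larger than 1.5-fold was tested next, and 28.7% of genes passed as lower. set-1 and set-4 passed this test (adjusted p = 9.67e-08 and 6.37e-06, edgeR's test against a fold change with Benjamini-Hochberg adjustment) and dpy-21 did not (adjusted p = 0.467, same test). The interval of dpy-21, from 1.12-fold to 1.86-fold lower, holds values on both sides of 1.5-fold. Among all genes tested, 6.87% had a lower log2 fold change than set-1, 12.6% than set-4 and 37.4% than dpy-21. In whole animals, fewer cells that express a gene and less of its RNA per cell cannot be told apart. Germline markers (5 genes) moved with stage as well, from 134.2 to 280.7 TPM in embryos to 38.5 to 59.1 TPM in larvae in sum, with 3 lower and 1 higher in larvae, and their part in the 3 results was not tested.

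The 3 genes also changed places. In embryos set-1 had the highest TPM of the 3 in every library, and set-4 and dpy-21 overlapped, with set-4 above dpy-21 in 1 of 4 libraries. In larvae set-1 and dpy-21 overlapped, with set-1 above dpy-21 in 1 of 4 libraries, and set-4 was lowest in every library. Of the summed TPM of the 3 genes, set-1 held 73.3 ± 2.76% in embryos and 39.9 ± 4.27% in larvae (SD, n = 4 each). dpy-21 held 13.8 ± 1.23% in embryos and 44.2 ± 4.37% in larvae. The share of set-4 was 12.9 ± 1.998% in embryos and 15.9 ± 2.67% in larvae. Among all genes tested, set-1 went from percentile 96.7 of TPM in embryos to 72.9 in larvae, and set-4 from 80.1 to 51.1. dpy-21 went from percentile 81.2 to 74.5.

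To compare methyltransferase with demethylase free of the scaling between libraries, the TPM ratio of each pair was taken within each library. The ratio of set-1 to dpy-21 was 4.54, 5.61, 5.97 and 5.37 in embryo replicates 1 to 4. In larvae it was 1.06, 0.981, 0.945 and 0.676. By TPM, embryos therefore held several set-1 transcripts for each dpy-21 transcript, and larvae between 0.676 and 1.06. The value of larvae replicate 3 uses the set-1 TPM that was high for its counts. In raw counts, set-1 to dpy-21 was 0.139 in that library and 0.142 in larvae replicate 4. The ratio of set-4 to dpy-21 was 0.899, 1.11, 0.773 and 0.983 in embryos. In larvae it was 0.381, 0.471, 0.282 and 0.319, below the embryo range in all 4 libraries. The methyltransferases also differed from each other, with a ratio of set-1 to set-4 of 5.05, 5.07, 7.73 and 5.46 in embryos. In larvae this ratio was 2.78, 2.08, 3.35 and 2.12, so set-1 stayed above set-4 in each library.

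**Figure D3:**
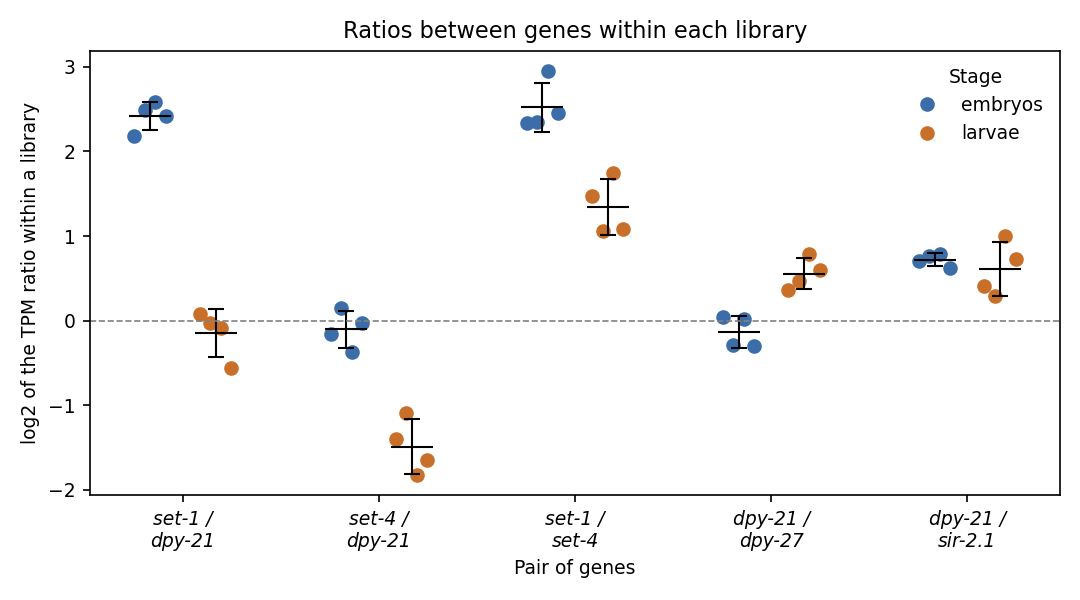
Log2 of the TPM ratio between 2 genes within each library, for 5 pairs, with embryos in blue and larvae in orange. Points are single libraries, horizontal lines with bars are the mean ± SD of 4 libraries, and the dashed line marks equal TPM. The ratios of set-1 and set-4 to dpy-21 are lower in all 4 larvae libraries than in any embryo library, dpy-21 to dpy-27 is higher in all 4, and dpy-21 to sir-2.1 overlaps between stages.

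The log2 ratio of set-1 to dpy-21 was 2.42 ± 0.170 in embryos and -0.15 ± 0.286 in larvae (SD, n = 4 each), a difference of -2.57. That of set-4 to dpy-21 was -0.10 ± 0.219 in embryos and -1.49 ± 0.321 in larvae, a difference of -1.39. That of set-1 to set-4 was 2.52 ± 0.292 in embryos and 1.34 ± 0.329 in larvae, a difference of -1.18. Each of these 3 differences had p = 0.0286 in a two-sided exact permutation test over all 70 regroupings of the libraries, the smallest value that 4 against 4 can give, and 0.0286 after Benjamini-Hochberg adjustment over the 3. All 4 larvae libraries were outside the embryo range in each pair. With 37.2% of single genes called lower and 36.9% higher in larvae, other pairs of genes may separate as well. The share of all pairs that do so was not computed, here or for the reference genes below. Without larvae replicate 3, where set-1 had the high TPM for its counts, the differences were -2.59 for set-1 to dpy-21 and -1.31 for set-1 to set-4. As a difference of medians the p of each was 0.0571 (exact permutation test), the smallest that statistic can give here. Ratios of raw counts, which are not per length, separated the stages too, with set-1 to dpy-21 at 1.03 to 1.36 in embryos and 0.139 to 0.231 in larvae.

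Reference genes placed the change of the demethylase transcript among its partners. sir-2.1 encodes the H4K16 deacetylase whose gene is altered in this strain, and dpy-27 encodes the condensin subunit specific to the dosage compensation complex. Transcript from the sir-2.1 locus was present in every library, at 35.8 to 38.6 TPM in embryos and 13.7 to 17.4 TPM in larvae. These reads come from the ok434 allele and are summed over the gene, so they measure RNA of the locus, and whether any of it is intact mRNA was not tested. The ratio of dpy-21 to sir-2.1 was 1.54 to 1.73 in embryos and 1.23 to 2.01 in larvae. These ranges overlapped, and the difference of -0.11 in log2 ratio did not pass (p = 0.514 in the exact permutation test, two-sided, and 0.514 after adjustment over 4 such ratios). The ratio of dpy-21 to dpy-27, in contrast, was 0.812 to 1.03 in embryos and 1.28 to 1.73 in larvae, a difference of 0.69 (adjusted p = 0.0381, exact permutation test over the same 4 ratios, higher in 4 of 4 larvae libraries). The ratio of set-1 to sir-2.1 was 7.38 to 10.3 in embryos and 1.12 to 1.90 in larvae, a difference of -2.68 (adjusted p = 0.0381, exact permutation test, same family). The ratio of set-4 to sir-2.1 was 1.34 to 1.88 in embryos and 0.507 to 0.578 in larvae, a difference of -1.50 (adjusted p = 0.0381, exact permutation test, same family). As differences of medians these 3 passing ratios had an adjusted p of 0.0762 (exact permutation test) and did not pass.

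The genes that work with DPY-21 on the X chromosome fell as well. Per the study, the condensin subunits of the complex other than DPY-27 are shared with condensin I. The list is thus not specific to the X chromosome. All 9 genes of the dosage compensation list were called lower in larvae, beside 37.2% of all genes tested, and all 9 had a lower log2 fold change than dpy-21, although these differences from dpy-21 were tested only for dpy-27, above. Their median log2 fold change was -1.48 beside -0.03 over all genes tested. The values ran from -2.86 for sdc-1, a zinc finger gene of sex determination and dosage compensation, to -0.93 for sdc-3, which helps bring the complex to X. For the acetylation of H4K16, a mark tied to H4K20 methylation on the X chromosome, 4 of 4 tested genes were lower (37.2% of all genes) with a median of -1.48, from -1.68 for the acetyltransferase gene mys-1 to -0.44 for sir-2.1.

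Among other genes of the SET domain class, to which both methyltransferases belong, 32 of 35 were tested, and 23 were lower and 2 higher in larvae (37.2% and 36.9% of all genes), with a median log2 fold change of -1.17. With library totals and on log2(TPM + 1) 29 were lower and 0 higher, scalings that also raise the lower calls over all genes, as given above. Each methyltransferase was ranked by mean TPM with these 35 genes, without the other methyltransferase. set-1 was highest in embryos and at rank 4 in larvae. set-4, with set-1 left out, was at rank 4 in embryos and at rank 8 in larvae. Of the 32 tested genes, 3 had a lower log2 fold change than set-1 and 8 than set-4. The values ran from -4.68 for set-12 to 0.64 for set-29. The calls of the 2 higher genes, set-27 and set-29, were lost with library totals, and their direction turned on log2(TPM + 1), to -0.33 and -0.19.

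Among other Jumonji C genes, the class of DPY-21, 11 of 13 were tested, and 8 were lower in larvae and the other 3 did not pass (37.2% of all genes were lower), with a median log2 fold change of -1.14. With library totals 10 were lower and on log2(TPM + 1) all 11. Over all 13571 genes tested, these scalings called 6607 and 7694 lower. The values ran from -6.12 for jmjd-3.2, a gene of the H3K27 demethylase family, to 0.00 for jmjd-4, which was called lower on log2(TPM + 1), at -0.99. Of the 11 tested, 8 had a lower value than dpy-21. dpy-21 was at rank 2 of 13 in mean TPM in embryos and at rank 1 in larvae. The 3 genes of LSD1-like demethylases, which remove methyl groups by another chemistry, were all lower (37.2% of all genes), with a median of -1.81, from -3.13 for lsd-1 to -0.92 for spr-5.

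The substrate is encoded by many near-identical histone H4 genes, whose reads the counting could split or drop, so their values are uncertain. Of 16 such genes 8 were tested, and 4 were lower and 1 higher in larvae, with a median log2 fold change of -0.94. The share over all genes was 37.2% lower, so 4 of 8 is near the background. On log2(TPM + 1) 7 of 8 were lower, as were 7694 of all 13571 genes tested. The values ran from -3.43 for his-67 to 1.67 for his-37. Replication-dependent histone transcripts lack a poly(A) tail in most animals, and the libraries were made by poly(A) selection.

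**Figure D4:**
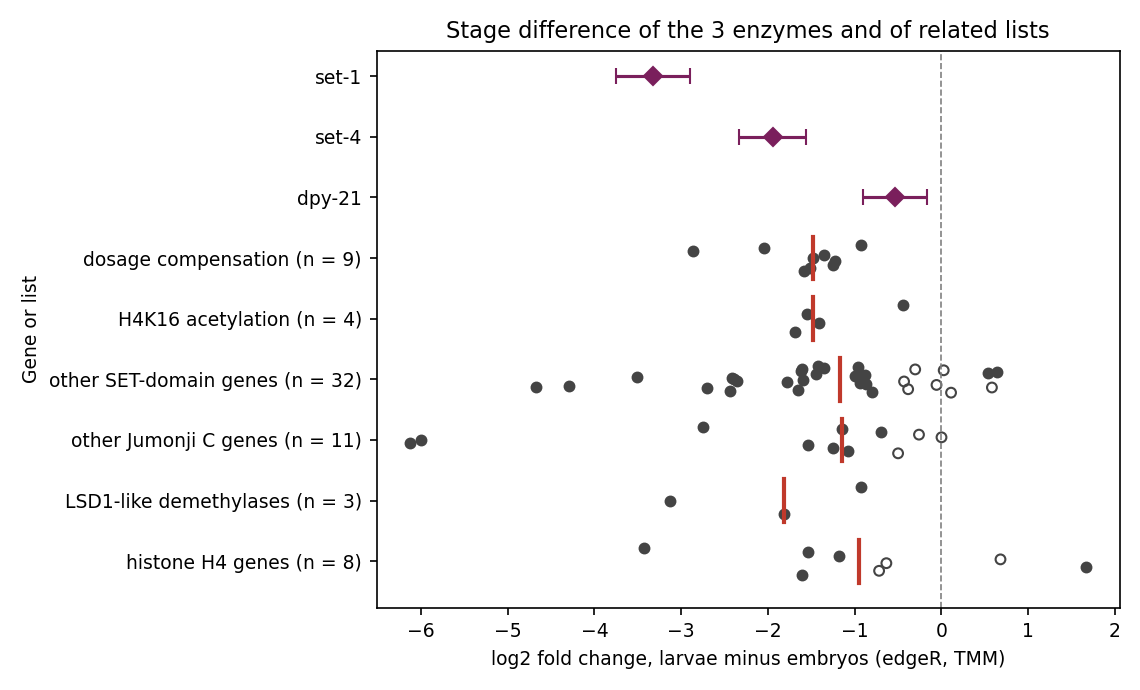
Log2 fold change, larvae minus embryos, on TMM-scaled counts for set-1, set-4 and dpy-21 (diamonds with 95% intervals) and for the tested genes of 6 related lists (points, filled where called at an adjusted p of 0.05 by edgeR). Red lines are list medians, which lie between -1.81 and -0.94. The value of dpy-21, -0.53, lies to the right of each list median, and set-1, at -3.32, lies to the left of each.

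The genes whose pattern over the 8 libraries was closest to each enzyme were found by the root mean square difference of centred log2 CPM, over 12564 genes. For set-1 these were cutl-16, kbp-5 and fbxl-2, at 0.126, 0.138 and 0.139. Their log2 fold changes were -3.23, -3.13 and -3.48. For set-4 they were swsn-4, ulp-2 and T25G3.1, at 0.0900, 0.0948 and 0.0992, with log2 fold changes of -1.87, -1.90 and -1.95. For dpy-21 they were Y50D7A.8, Y75B8A.8 and vti-1, at 0.0694, 0.0778 and 0.0797, with log2 fold changes of -0.52, -0.49 and -0.42. This distance includes the difference between stages, so the similar fold changes follow from how the genes were picked. For the same reason no gene stood in more than 1 of these groups of 3.

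The neighbours of each gene were taken by position in WS220. On 1 side of set-1, 87 bases away on the same strand, T26A5.6 had a log2 fold change of -0.59 (adjusted p = 0.00764, edgeR's quasi-likelihood test with Benjamini-Hochberg adjustment). On the other side lies jhdm-1, itself a Jumonji C gene that the list above did not include, with -1.63 (adjusted p = 2.11e-06, same test). Both fell less than set-1 by these estimates, though the differences were not tested. The genes beside set-4 went the other way from it. sma-6, a receptor gene of the BMP pathway, had 1.67 (adjusted p = 5.15e-05, same test), and ttc-39B had 1.32 (adjusted p = 0.00469, same test), whose call was lost with library totals and on log2(TPM + 1). Beside dpy-21, usp-50 had 0.06 and did not pass (adjusted p = 0.747, same test), whereas it was called lower with library totals, at -0.43, and on log2(TPM + 1), at -0.73. Y59A8B.24 had too few reads to be tested. No WS220 locus in the tables overlaps any of the 3 enzymes. In the later annotation the ncRNA genes Y59A8B.36 and Y59A8B.38 lie within dpy-21, on the minus and the plus strand, and their reads cannot be told apart from those of dpy-21.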

How the data were processed

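Polyadenylated RNA had been made into dUTP stranded libraries and sequenced with single-end reads. The authors aligned reads to WS220 with Tophat 2.1.1 and counted them per gene with HTSeq 0.6.1p1. CASAVA 1.8, Cufflinks 2.2.0 and DESeq2 are also named in the processing notes or methods. The deposited counts are whole reads per gene, not normalized. The deposited TPM values are the authors' levels per length and library size, and how they were derived is not given in the sources used here. A further 14 TPM columns of other libraries were not used. Deposited DESeq2 tables hold the authors' strain contrast against wild-type libraries (base mean, log2 fold change, standard error, statistic and p-values), and none of their values was used.

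Groups came from the titles. Larvae were compared with embryos by edgeR 4.0.16 (glmQLFit and glmQLFTest, R 4.3.3) on the counts with TMM factors and filterByExpr, which left 13571 genes. The adjusted p threshold was 0.05. Alternatives were library totals, upper quartile factors, DESeq2 1.42.0, other filters, limma 3.58.1 on log2(TPM + 1), a test against a 1.5-fold change, the replicate block, leaving out each library, and leaving out both libraries with joined run names. Within-library log2 TPM ratios, with no pseudocount, were compared by two-sided exact permutation tests (Python 3.11.15, scipy 1.17.1). The main edgeR fit, DESeq2 and the limma fit were tested on simulated data, and the other fit settings were not. The 5 summary classes that name no gene stayed out of library sizes. Reads outside genes were 3.26% to 6.06% and ambiguous ones 0.861% to 1.07% of gene counts plus both classes. Gene names came from RefSeq and matched 19881 of 20389 identifiers, and mys-3 and riox-1 were not matched. Starts in the deposited loci count from 0 on 7 of 7 chromosomes, so 1 was added. Exon and antisense annotation came from WBcel235. The named genes were the 3 enzymes, sir-2.1, dpy-27, the 3 genes closest in pattern to each enzyme (mean TPM of 1 or more), and the lowest and highest tested gene of each list. set-27 was named after its value was seen, and neighbours were chosen by position. The members and lists were chosen with earlier results of these data known.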

Additional observations from a re-analysis of the deposited data

Results flagged for a closer look

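Each measure was examined for a single library apart from the other 3 of its stage, and 2 of 32 such groups held one. Chance flags about 1 group in 20, or 1.6 of 32. The TPM of set-4 in larvae replicate 2 was 10.0, against 7.40 to 7.77 in the other larvae libraries, with a gap of 0.859 of the group's range. On TMM-scaled CPM the same library stood at 17.7 against 14.7 to 15.8 and was not set apart. Its title joins 2 run names. The TPM of set-1 for each CPM in larvae replicate 3 was 0.899, against 0.621 to 0.655, with a gap of 0.878 of the range. This quotient was added after the difference between the tables had been seen.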

How the results depend on the processing

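The log2 fold change kept its direction under 17 alternatives for each enzyme, from -3.90 to -3.21 for set-1, from -2.64 to -1.82 for set-4 and from -1.36 to -0.43 for dpy-21. set-1 and set-4 kept their calls under all 17. dpy-21 lost its call only in the test against a 1.5-fold change, which left its value at -0.53 (adjusted p = 0.467, edgeR with Benjamini-Hochberg adjustment). The count of genes called ran from 7969 to 11491. The same-numbered embryo and larvae libraries did not deviate together, with correlations from -0.19 to 0.07. The labels do not say whether a replicate number marks a shared culture or day. With the replicate block the values were -3.31, -1.93 and -0.54 for set-1, set-4 and dpy-21, and 9768 genes were called against 10058 without it.

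The ratio tests passed at the smallest p that 4 against 4 allows. The replicate block, the 3 against 3 comparison and the difference of medians could not pass. With the replicate block (sign flips of 4 pairs, smallest p 0.125) the differences were -2.57 for set-1 to dpy-21, -1.39 for set-4 to dpy-21, -1.18 for set-1 to set-4, -2.68 for set-1 to sir-2.1, -1.50 for set-4 to sir-2.1 and 0.69 for dpy-21 to dpy-27. Without both libraries whose titles join run names (3 against 3, smallest p 0.1) they were -2.68, -1.54, -1.15, -2.70, -1.55 and 0.77 in the same order. As differences of medians, with an exact permutation p of 0.0571 each, the smallest that this statistic can give, they were -2.51, -1.43, -1.12, -2.77, -1.44 and 0.67. All other ratio alternatives kept these calls. The ratio of dpy-21 to sir-2.1 ranged from -0.24 to -0.01 and never passed. Under 7 of 17 alternatives the 2 higher SET-domain genes were 0 or 1. On log2(TPM + 1) 7 histone H4 genes were lower, as were 7694 of all 13571 genes tested.

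Depth limits little here, since the lowest count of any enzyme was 171. With TMM the interval of dpy-21 spans 1.5-fold, while its values with library totals and on log2(TPM + 1), -1.02 and -1.36, are larger falls, so the size depends on the scaling. Transcript levels do not show enzyme or histone mark levels.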
